A study of Homo sapiens and Canis lupus familiaris with 27 samples.

Results

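The G1/S cyclins and their kinases are described here as 10 genes chosen by name: the D cyclins CCND1, CCND2 and CCND3, their kinases CDK4 and CDK6, the E cyclins CCNE1 and CCNE2, their kinase CDK2, the phosphatase CDC25A and the ubiquitin ligase subunit SKP2. All 10 were among the 23708 genes listed for the human cells and among the 16028 genes listed for the canine cells. RNA was sequenced from PC-3 cells, a human prostate carcinoma line from a bone marrow metastasis, from LNCaP cells, a human line from a lymph node metastasis, and from CT1258 cells, a canine prostate adenocarcinoma line. Each line received 15 μM PDA-66, an indolylmaleimide, for 12 h or for 24 h, or 0.15% DMSO, the solvent, as a control labelled 24 h. Each of these groups had 3 independent biological replicates, except the PC-3 DMSO group with 2. After the removal of genes with low counts, 9 members were tested among 13777 genes in PC-3, 9 among 13156 in LNCaP and all 10 among 9886 in CT1258. CCND2 was the member without enough counts in the human lines.

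Progress from G1 into S phase depends on cyclins, which bind and activate the cyclin-dependent kinases (CDKs). D cyclins are made in response to growth signals and activate CDK4 and CDK6, which begin to phosphorylate the retinoblastoma protein RB1, and E cyclins then activate CDK2, which completes this step and frees E2F transcription factors to drive S phase genes, the E cyclins and CDC25A among them. CDC25A removes the inhibitory phosphate from CDK2, while SKP2 selects the CDK inhibitor p27 (CDKN1B) for degradation.

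Marker genes were checked for each line. The summed level of 3 mesenchymal-type genes known from PC-3 was 2214 to 3146 CPM, the counts scaled by library size, in PC-3 and 9.69 to 15.1 CPM in LNCaP. The 4 epithelial genes summed to between 330.5 and 576 CPM in PC-3 and between 1334 and 2039 CPM in LNCaP, while for CT1258 the table listed only EPCAM of these, at most 0.262 CPM. In PC-3 the epithelial sum was lower with PDA-66, with group means of 547, 355 and 386 CPM in the DMSO, 12 h and 24 h groups, and 2 of the 4 genes fell at 12 h and 3 at 24 h (1 without replicate 2 or 3 of the 24 h group, and 2 without DMSO replicate 3, replicate 3 of the 12 h group or replicate 1 of the 24 h group). Over all 13777 genes tested in PC-3, 2012 fell at 12 h and 1442 at 24 h. In CT1258 CD44, the only mesenchymal-type gene listed, went from 2345 CPM in DMSO to 1317 and 1560 CPM, while 2 listed fibroblast genes summed to 293, 392 and 374 CPM. Summed blood markers stayed at or below 1.25 CPM in every sample. Summed endothelial markers were lower with PDA-66 in both human lines, with means of 15.9, 5.01 and 8.98 CPM in the PC-3 DMSO, 12 h and 24 h groups and of 30.2, 8.31 and 6.84 CPM in LNCaP, where 2 of the 3 had at most 3 counts. The part of these genes in the values of the members was not tested. Total counts were between 7203534 and 20976950 per sample, and the CT1258 controls had on average 2.64 times the total of the CT1258 PDA-66 samples. One LNCaP library, replicate 2 of the 12 h group, stood apart with 412 CPM of CDK4, 34.2 CPM of CCNE2 and 125 CPM of the fibroblast gene COL1A1, so the comparisons of LNCaP with its controls are also given without it. This alternative was chosen after seeing the data, in part by the CDK4 and CCNE2 values themselves. A lower adjusted p of these members without the library is therefore no added support. In bulk RNA, fewer cells that express a gene and less of its RNA per cell cannot be told apart.

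Promoter windows were read for the members that had an entry, from 250 bases before to 50 bases after the RefSeq start site. An entry was present for 6 of the 10 members, with 9 windows in all, and CCND1, CCND2, CCNE2 and CDK2 had none. CDC25A, CCNE1, SKP2, CDK2 and CCND1 were chosen to be shown, so only CDC25A, CCNE1 and SKP2 appear. The windows lie in build GRCh38.p14 at chr3:48188368-48188667 on the minus strand for CDC25A, at chr19:29811741-29812040 on the plus strand for CCNE1 and at chr5:36151861-36152160 on the plus strand for SKP2. Capitals mark the only match to an E2F motif, spelled TTTCCCGC, TTTCGCGC, TTTGCCGC or TTTGGCGC on either strand.
CDC25A: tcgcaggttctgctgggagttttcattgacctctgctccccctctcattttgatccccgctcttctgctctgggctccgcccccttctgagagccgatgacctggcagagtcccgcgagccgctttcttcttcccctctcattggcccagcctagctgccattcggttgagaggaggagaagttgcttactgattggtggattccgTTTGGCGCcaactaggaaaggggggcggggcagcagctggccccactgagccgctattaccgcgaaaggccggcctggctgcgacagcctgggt
CCNE1: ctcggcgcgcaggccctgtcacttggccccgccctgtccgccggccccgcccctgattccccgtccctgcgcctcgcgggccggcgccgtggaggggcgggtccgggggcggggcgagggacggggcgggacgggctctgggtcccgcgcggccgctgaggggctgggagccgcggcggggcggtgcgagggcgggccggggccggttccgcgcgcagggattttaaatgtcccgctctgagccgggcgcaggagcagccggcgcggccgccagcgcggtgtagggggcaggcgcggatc
SKP2: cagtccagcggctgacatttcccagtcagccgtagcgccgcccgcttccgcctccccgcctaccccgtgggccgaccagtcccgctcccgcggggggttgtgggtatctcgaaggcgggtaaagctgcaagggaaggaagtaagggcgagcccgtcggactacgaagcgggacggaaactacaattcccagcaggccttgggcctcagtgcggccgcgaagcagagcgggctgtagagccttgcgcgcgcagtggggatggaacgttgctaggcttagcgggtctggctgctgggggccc
The match in CDC25A was TTTGGCGC, whose first base lies at position -44 from the start site. Of the 9 member windows, 1 held such a match, compared with 3.31% of 35116 promoter windows of the same length. The cyclic AMP response element TGACGTCA was in none of the 9 and in 1.85% of all windows, and the AP-1 motif TGACTCA was in none of the 9 and in 4.95% of all.

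Before treatment the members stood at very different levels. Per kilobase of transcript, in the PC-3 controls CCND1 was highest with 163 ± 2.61 CPM per kb (SD, n = 2), followed by CDK4 with 129 ± 11.5 and CDK2 with 38.3 ± 3.70 CPM per kb. CCND3 with 16.4 ± 2.70, CCNE2 with 7.82 ± 2.45, SKP2 with 6.18 ± 0.935, CDK6 with 5.70 ± 1.68 and CDC25A with 5.64 ± 0.700 CPM per kb came next, and the last 4 of these lay within each other's spread. CCNE1 was near the bottom with 1.02 ± 0.402 CPM per kb. In the LNCaP controls CDK4 led with 77.2 ± 6.95 CPM per kb (n = 3), ahead of CCND1 with 60.9 ± 4.42 and CDK2 with 26.8 ± 6.68 CPM per kb. CCND3 followed with 17.3 ± 6.14, then CCNE2 with 11.3 ± 4.10, SKP2 with 11.1 ± 1.64, CCNE1 with 6.69 ± 1.38 and CDC25A with 6.48 ± 1.75 CPM per kb. CCNE2 and SKP2 did not differ beyond their spread, nor did CCNE1 and CDC25A. CDK6 was at only 0.105 ± 0.0271 CPM per kb in LNCaP.

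**Figure D1:**
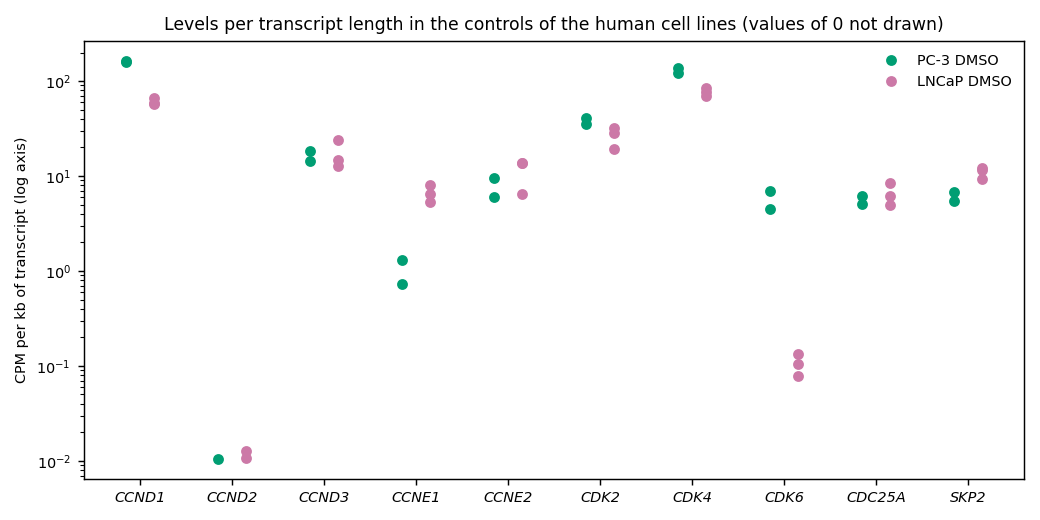
Level of each member in the DMSO samples of PC-3 (n = 2) and LNCaP (n = 3), in CPM per kilobase of transcript on a log axis, with 1 point per sample and values of 0 not drawn. CDK6 lies near 5.70 CPM per kb in PC-3 and near 0.105 CPM per kb in LNCaP, and CCND2 is close to 0 in both.

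Between the human controls, CDK6 was 54.0-fold higher in PC-3 (log2 difference 5.75 ± 0.27 SE, adjusted p = 1.19e-11, edgeR quasi-likelihood test with Benjamini-Hochberg adjustment). CCND1 was 2.67-fold higher in PC-3 (1.42 ± 0.12, adjusted p = 1.63e-08), while CCNE1 was 6.56-fold lower (-2.71 ± 0.27, adjusted p = 1.34e-07) and SKP2 1.79-fold lower (-0.84 ± 0.18, adjusted p = 0.0006). These 4 of 9 members passed the threshold of 0.001, compared with 40.8% of all 15018 genes tested. The SKP2 call was lost without PC-3 DMSO replicate 2 or 3 or LNCaP DMSO replicate 1 or 2, with log2 differences from -1.0 to -0.69 and adjusted p up to 0.017. CDK4 (0.73, adjusted p = 0.00971) and CDK2 (0.51, adjusted p = 0.0207) were above LNCaP without passing, and CCND3, CCNE2 and CDC25A had intervals that included 0. The lines were grown in different media, so cell line and medium cannot be told apart.

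The question of the treatment comparisons was how PDA-66 acts on the transcriptome of each line. In PC-3, 6 of 9 members rose after 12 h, CCND3, CCNE1, CCNE2, CDK2, CDC25A and SKP2, and none fell, where 27.6% of all genes tested passed and 13.0% passed as higher. After 24 h, 4 of 9 were higher, CCND3, CDK2, CDC25A and SKP2, with 19.3% of all genes passing and 8.88% as higher. The median log2 fold change of the 9 members was 1.19 at 12 h and 0.87 at 24 h, and over all genes it was -0.0052 and -0.010. At the second threshold of 0.05 used below, 7 of 9 members passed at 24 h, as did 49.9% of all genes. The 24 h and 12 h groups were compared with the same controls, which are labelled 24 h only, so at 12 h the treatment and the time in culture cannot be told apart.

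In LNCaP, 0 of 9 members passed an adjusted p of 0.001 in edgeR's quasi-likelihood test at 12 h, where 0.00760% of all genes passed, and 0 of 9 at 24 h, where 0% of all genes passed. At an unadjusted p under 0.05 there were 8 members at 12 h and 7 at 24 h, and 3950 and 2599 of all 13156 genes. The edgeR likelihood ratio test and the DESeq2 Wald test each called 3 at either time, and limma voom with sample quality weights called 7 and 6. Shares of all genes called by these other tests are not given here, so their counts cannot be set against a background. At a second threshold of 0.05, 5 members were higher at 12 h, where 9.14% of all genes passed and 4.52% as higher, and 3 at 24 h, where 2.92% passed and 1.35% as higher. All 9 log2 fold changes were above 0 at both times, with medians of 1.15 and 0.77, against 0.026 and -0.011 over all genes. Without replicate 2 of the 12 h group, 8 of 9 members passed 0.05 at each time, all but CCND1 at 12 h and all but CDK6 at 24 h, where 29.1% and 27.9% of all genes passed. These 8 include CDK4 and CCNE2, by whose values that library was in part picked, so their passes are no added support. In the 24 h comparison the library is in neither group and enters only through the shared fit. At 0.001, 3 passed at 12 h and 1 at 24 h, where 1.96% and 0.787% of all genes did. The replicates of LNCaP varied most, with a common coefficient of biological variation of 0.240 against 0.0971 for PC-3 and 0.10 for CT1258.

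In CT1258, 5 of 10 members rose after 12 h, CCNE1, CCNE2, CDK2, CDC25A and SKP2, and 3 fell, CCND1, CCND2 and CDK6, where 44.3% of all genes passed, 22.2% as higher and 22.1% as lower. After 24 h CDK2 and CDC25A were higher and CCND1, CCND2 and CDK6 lower, 5 of 10, with 33.8% of all genes passing, 16.6% as higher and 17.2% as lower. The count at 24 h was 3 without replicate 3 of the 24 h group and 8 without DMSO replicate 2. The median log2 fold change of the 10 members was 0.45 at 12 h and 0.056 at 24 h, and the median of all genes was -0.0025 and -0.0068. At 0.05, 8 of 10 passed at 24 h, as did 62.1% of all genes. With the counts of the controls thinned to the depth of the PDA-66 samples, 8 and 4 members passed.

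**Figure D2:**
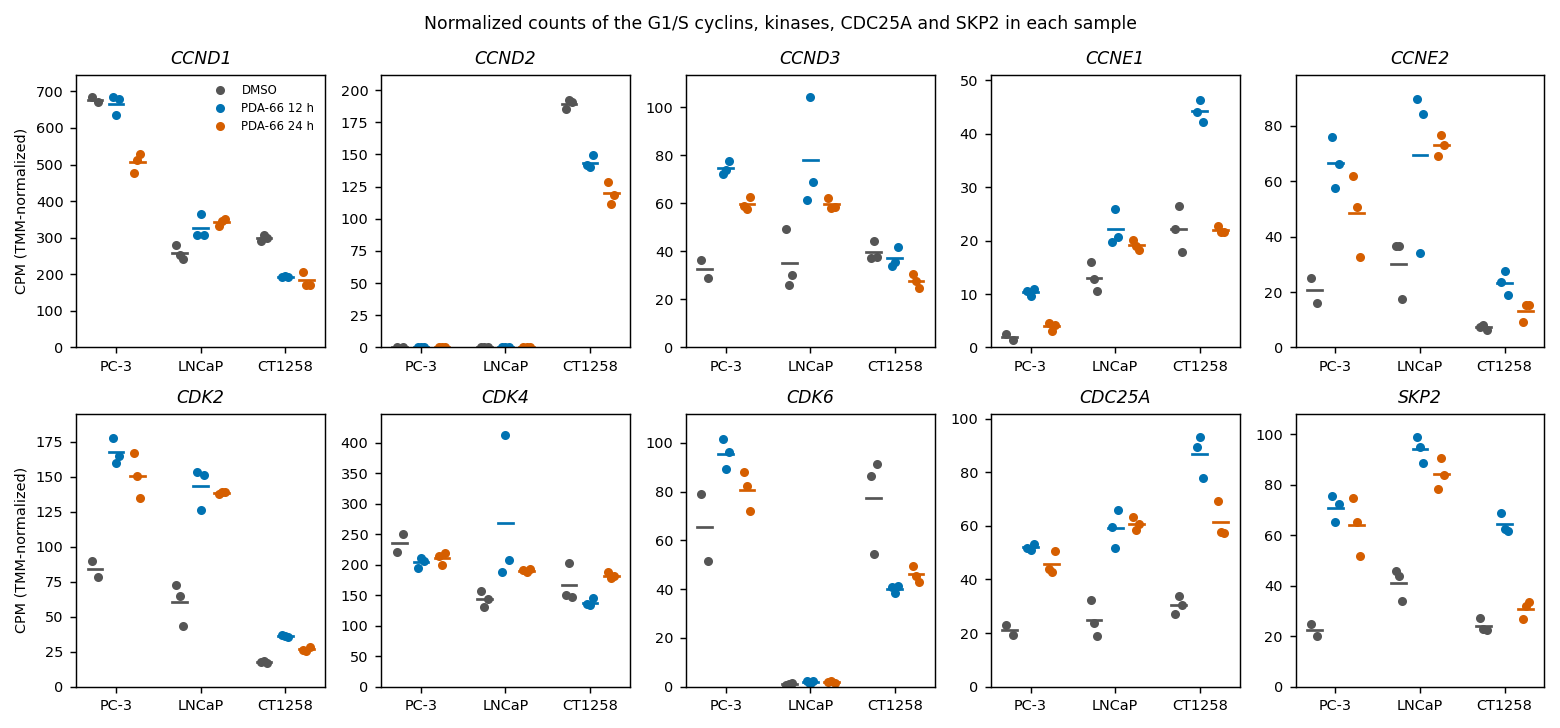
Level of each member in every sample, in CPM, by cell line and treatment, with 1 point per sample and a line at the group mean. CDK2, CDC25A and SKP2 lie above the DMSO samples after 12 h in all 3 lines, and CCND1 and CDK6 lie below them in CT1258.

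CCND1, at chr11:69455924-69469242 on the plus strand (GRCh37), encodes cyclin D1, an activator of CDK4 and CDK6 that is often overproduced in tumors. In PC-3 it was at 685 and 670.4 CPM in the DMSO samples, at 684, 637 and 679 CPM after 12 h and at 476, 513 and 529.9 CPM after 24 h. The 12 h samples overlapped the controls (log2 fold change -0.02, 95% interval -0.22 to 0.17, adjusted p = 0.840), while all 24 h samples lay below both other groups. This difference of -0.42 ± 0.092 SE did not reach the threshold of 0.001 (adjusted p = 0.00206). In LNCaP it was at 279.9, 253 and 243 CPM in the controls, 308, 366 and 309 CPM after 12 h and 333, 346 and 351 CPM after 24 h, so that the PDA-66 samples lay above every control. Neither difference passed 0.05 (0.34 and 0.41, adjusted p = 0.132 for both). Without the library that stood apart, the 12 h value was 0.26 (adjusted p = 0.0615) and the 24 h value of 0.41 passed 0.05 (adjusted p = 0.00689). In CT1258 the controls were at 291, 308 and 299 CPM, the 12 h samples at 192, 195 and 191 CPM and the 24 h samples at 206, 172 and 171 CPM. Here CCND1 fell without overlap, 1.55-fold after 12 h (log2 fold change -0.63 ± 0.085, adjusted p = 1.58e-05) and 1.63-fold after 24 h (-0.71 ± 0.085, adjusted p = 9.89e-06), and both calls held in all 9 fits that left out 1 sample.

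CCND2 encodes cyclin D2 (chr12:4378937-4414519, plus strand). In PC-3 it had 1 count in 1 control and 0 in all other samples, and in LNCaP at most 3 counts per sample, which is at most 0.230 CPM. It was therefore close to undetected in both human lines at this depth. In CT1258 it was at 185, 192 and 190.4 CPM in the controls, 141, 140.2 and 149 CPM after 12 h and 129, 112 and 119 CPM after 24 h. The 3 groups did not overlap, and the values were lowest at 24 h. CCND2 fell 1.32-fold after 12 h (-0.40 ± 0.078, adjusted p = 0.000431) and 1.58-fold after 24 h (-0.66 ± 0.079, adjusted p = 9.06e-06). The 12 h call was lost without any 1 of the 3 samples of the 12 h group, without replicate 3 of the 24 h group and without DMSO replicate 1 or 3, with log2 fold changes between -0.43 and -0.38 and adjusted p up to 0.00414, and in a fit of only the 2 groups (adjusted p = 0.00132).

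CCND3, at chr6:41902672-42018095 on the minus strand, encodes cyclin D3, the third D-type partner of CDK4 and CDK6. It was the D cyclin whose value was higher with PDA-66 in both human lines by more than 1.5-fold. In PC-3 the controls were at 36.4 and 28.8 CPM, the 12 h samples at 72.2, 73.8 and 77.8 CPM and the 24 h samples at 59.0, 57.6 and 62.7 CPM. All PDA-66 samples were above both controls, and CCND3 rose 2.29-fold (log2 fold change 1.19 ± 0.12, adjusted p = 2.22e-06) and 1.83-fold (0.87 ± 0.12, adjusted p = 4.80e-05). In LNCaP the controls spread over 49.2, 25.8 and 30.1 CPM, below the 12 h samples with 61.3, 104 and 68.8 CPM and the 24 h samples with 62.2, 58.0 and 58.7 CPM. The 12 h difference of 1.15 ± 0.28 passed 0.05 (adjusted p = 0.0325), and the 24 h difference of 0.77 did not (adjusted p = 0.155). Without replicate 2 of the 12 h group, which held the 104 CPM, the 12 h value was 0.89 (adjusted p = 0.0122) and the 24 h value of 0.77 also passed 0.05 (adjusted p = 0.0174). The CT1258 controls were at 37.1, 44.5 and 37.8 CPM, the 12 h samples at 33.8, 35.5 and 42.0 CPM and the 24 h samples at 30.7, 27.7 and 25.0 CPM. The 12 h group overlapped the controls (-0.10, 95% interval -0.35 to 0.15), and the 24 h group lay wholly below them without passing 0.001 (-0.52 ± 0.12, adjusted p = 0.00192).

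CDK4, at chr12:58141510-58149796 on the minus strand, is a kinase activated by D cyclins, and none of its differences from DMSO passed 0.001. In PC-3 it was at 221 and 251 CPM in the controls, 195, 212 and 205 CPM after 12 h and 214, 199.7 and 219.8 CPM after 24 h. The PDA-66 samples were all slightly below the controls (-0.21 ± 0.096, adjusted p = 0.0809, and -0.16 ± 0.096, adjusted p = 0.187). In LNCaP the controls were at 157, 132 and 144 CPM, the 24 h samples at 191, 189 and 193 CPM and the 12 h samples at 188, 412 and 208 CPM, the middle value coming from the library that stood apart. The 12 h difference was 0.90 ± 0.27 with that library (adjusted p = 0.0666) and 0.46 without it (adjusted p = 0.00882). Because the library was picked in part by its CDK4 value, the lower adjusted p without it is no added support. The 24 h difference was 0.40 with or without it, and it passed 0.05 only without it (adjusted p = 0.464 and 0.0111). For CT1258 the DMSO samples were at 151, 203 and 147 CPM, the 12 h samples at 135, 133 and 145 CPM and the 24 h samples at 188, 178 and 181 CPM. One control, at 203 CPM, stood above the other 2, and the log2 fold changes were -0.28 ± 0.11 (adjusted p = 0.0380) and 0.12 ± 0.11 (adjusted p = 0.343). On GRCh37, 44.2% of the exon bases of CDK4 are shared with TSPAN31 on the opposite strand, and whether counting used the strand is not given in the sources used here, so reads of both genes cannot be told apart there. Other members also share exon bases with a gene on the opposite strand, among them 14.5% for CDK2 and 10.4% for CCND1. TSPAN31 itself fell in PC-3, from 18.5 to 20.5 CPM in the controls to 11.6 to 13.3 CPM after 12 h and 11 to 12.8 CPM after 24 h. The part of TSPAN31 reads in the CDK4 values was not tested.

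CDK6, at chr7:92234235-92465887 on the minus strand, is the other kinase of the D cyclins, and its mean level with PDA-66 was above DMSO in PC-3 and below it in CT1258. In PC-3 the controls were at 79.0 and 51.8 CPM, the 12 h samples at 102, 89.1 and 96.1 CPM and the 24 h samples at 88.0, 82.5 and 71.9 CPM. The 12 h samples were above both controls and the 24 h samples overlapped them, and neither difference passed 0.001 (0.55 ± 0.15, adjusted p = 0.00783, and 0.31 ± 0.15, adjusted p = 0.111). In LNCaP the values ran from 0.917 to 2.39 CPM over all 9 samples, with overlap between the groups and adjusted p of 0.172 and 0.350. Without the library that stood apart, the 12 h difference of 0.96 passed 0.05 (adjusted p = 0.0338) and the 24 h difference of 0.62 did not (adjusted p = 0.118). In CT1258 cells the controls were at 86.5, 54.6 and 91.3 CPM, the 12 h samples at 40.8, 38.6 and 41.3 CPM and the 24 h samples at 49.6, 45.5 and 43.1 CPM. CDK6 fell 1.93-fold after 12 h (-0.95 ± 0.16, adjusted p = 0.000105) and 1.68-fold after 24 h (-0.75 ± 0.16, adjusted p = 0.000870), with every PDA-66 sample below the lowest control. The 24 h call rested close to the threshold, and it was lost without any 1 of 8 of the 9 samples, all but DMSO replicate 2, with log2 fold changes from -0.95 to -0.61 and adjusted p up to 0.00641. It was also lost with thinned controls (-0.73, adjusted p = 0.00149), with library size only (adjusted p = 0.00171) and in a fit of only the 2 groups (adjusted p = 0.00421).

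CCNE1, at chr19:30302898-30315219 on the plus strand, encodes cyclin E1, an activator of CDK2, and it had the largest fold change of any member, at 12 h in PC-3. There the controls were at 2.50 and 1.41 CPM, which is 37 and 21 counts, the 12 h samples at 10.6, 9.60 and 11 CPM and the 24 h samples at 4.62, 3.06 and 4.13 CPM. The 3 groups were fully apart, with the 12 h samples highest. CCNE1 rose 5.31-fold after 12 h (2.41 ± 0.24, adjusted p = 2.74e-06), and its 24 h difference of 1.01 ± 0.26 did not pass 0.001 (adjusted p = 0.00622). From 12 h to 24 h it fell 2.64-fold (-1.40 ± 0.18, adjusted p = 0.000390), the only member to pass in this comparison, where 1.41% of all genes passed and 0.631% as lower. That call was lost without any 1 of the 6 PDA-66 samples, with log2 differences between -1.54 and -1.24 over all fits and adjusted p up to 0.00392.

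In LNCaP, CCNE1 was at 15.9, 12.8 and 10.5 CPM in the controls, 19.7, 25.9 and 20.7 CPM after 12 h and 20.0, 18.9 and 18.3 CPM after 24 h. Both PDA-66 groups lay above the controls, and the 12 h difference of 0.75 ± 0.19 passed 0.05 (adjusted p = 0.0414), while the 24 h difference of 0.54 did not (adjusted p = 0.155). Without the library that stood apart, both passed 0.05 (0.63, adjusted p = 0.0166, and 0.55, adjusted p = 0.0222). In CT1258 the controls were at 22.2, 26.5 and 17.9 CPM, the 12 h samples at 44.1, 46.4 and 42.2 CPM and the 24 h samples at 22.8, 21.6 and 21.6 CPM. The level was thus raised at 12 h only, and the 24 h samples lay within the range of the controls. CCNE1 rose 1.99-fold after 12 h (1.00 ± 0.13, adjusted p = 9.90e-06), and the 24 h log2 fold change was -0.01 with a 95% interval of -0.30 to 0.27. From 12 h to 24 h CCNE1 fell 2.01-fold (-1.01 ± 0.14, adjusted p = 0.000284), 1 of 2 members called where 2.13% of all genes passed and 1.28% as lower, and this call was lost without any 1 of the 6 PDA-66 samples (-1.04 to -0.97 over all fits, adjusted p up to 0.00318).

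CCNE2 encodes cyclin E2, the second partner of CDK2. In PC-3 the controls were at 25.1 and 16.0 CPM, the 12 h samples at 76.0, 57.4 and 66.3 CPM and the 24 h samples at 61.8, 50.6 and 32.8 CPM. All PDA-66 samples exceeded both controls, and the 24 h samples were widely spread. CCNE2 rose 3.24-fold after 12 h (1.70 ± 0.24, adjusted p = 6.49e-05), and the 24 h difference of 1.24 ± 0.24 fell just short of the threshold (2.36-fold, adjusted p = 0.0010 after rounding). The LNCaP controls were at 36.6, 36.5 and 17.4 CPM, the 12 h samples at 89.6, 34.2 and 84.4 CPM and the 24 h samples at 69.0, 76.7 and 72.9 CPM. The library that stood apart held the 34.2 CPM and overlapped the controls, and the other 5 PDA-66 samples were above all of them. The log2 fold changes were 1.20 ± 0.38 (adjusted p = 0.0736) and 1.27 ± 0.38 (adjusted p = 0.0988), and without that library both passed 0.05, with 1.53 (adjusted p = 0.00171) and 1.28 (adjusted p = 0.00356). That library was picked in part by its CCNE2 value, so these passes are no added support.

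In CT1258, CCNE2 was at 7.49, 8.21 and 6.46 CPM in the controls, 23.7, 27.5 and 19.0 CPM after 12 h and 9.21, 15.3 and 15.3 CPM after 24 h, with no overlap of either group with the controls. It rose 3.17-fold after 12 h (1.66 ± 0.19, adjusted p = 2.97e-06), and the 24 h difference of 0.84 ± 0.20 did not pass 0.001 (adjusted p = 0.00203). On GRCh37, 37% of the CCNE2 exon bases are shared with INTS8, a gene of the integrator complex on the opposite strand, so that reads of both cannot be told apart there. INTS8 was itself higher with PDA-66, at 56.3 to 58.0 CPM in the PC-3 controls, 75.6 to 78.4 CPM after 12 h and 80.6 to 86.8 CPM after 24 h. Its log2 fold changes in PC-3 were 0.43 and 0.57. The part of INTS8 reads in the CCNE2 values was not tested.

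CDK2, at chr12:56360565-56366573 on the plus strand, is the kinase of the E cyclins and later of cyclin A, and its PDA-66 samples lay above the controls in every line and at both times. In PC-3 the controls were at 90.1 and 78.7 CPM, the 12 h samples at 178, 160.0 and 165 CPM and the 24 h samples at 167, 150.4 and 135 CPM. CDK2 rose 1.99-fold (0.99 ± 0.12, adjusted p = 1.05e-05) and 1.79-fold (0.84 ± 0.11, adjusted p = 6.54e-05). LNCaP controls were at 72.7, 64.8 and 43.4 CPM, the 12 h samples at 153, 127 and 151 CPM and the 24 h samples at 138, 139 and 139 CPM. The lowest PDA-66 sample was thus well above the highest control, and the differences of 1.25 ± 0.20 and 1.20 ± 0.20 passed 0.05 (adjusted p = 0.00870 and 0.0240). They were 1.34 and 1.21 without the library that stood apart (adjusted p = 0.00078 and 0.00116). The CT1258 controls were at 18.1, 18.5 and 17.0 CPM, the 12 h samples at 37.2, 36.6 and 35.4 CPM and the 24 h samples at 26.5, 25.8 and 28.8 CPM. CDK2 rose 2.04-fold after 12 h (1.03 ± 0.096, adjusted p = 5.51e-07) and 1.51-fold after 24 h (0.60 ± 0.097, adjusted p = 0.000124), and without replicate 3 of the 24 h group the 24 h call was lost (adjusted p = 0.00135).

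CDC25A, at chr3:48198636-48229907 on the minus strand, encodes the phosphatase that removes inhibitory phosphates from CDK2. Its PC-3 controls were at 23.2 and 19.4 CPM, the 12 h samples at 51.7, 51.0 and 53.3 CPM and the 24 h samples at 43.9, 42.7 and 50.7 CPM. CDC25A rose 2.44-fold (1.29 ± 0.12, adjusted p = 1.57e-06) and 2.15-fold (1.10 ± 0.12, adjusted p = 1.08e-05), with the PDA-66 samples far above the controls. In LNCaP the controls were at 32.2, 23.8 and 18.8 CPM, the 12 h samples at 59.6, 51.8 and 65.9 CPM and the 24 h samples at 63.3, 58.5 and 60.7 CPM. The groups did not overlap, and both differences passed 0.05 (1.24 ± 0.21, adjusted p = 0.0107, and 1.28 ± 0.21, adjusted p = 0.0233), with 1.33 and 1.29 without the library that stood apart (adjusted p = 0.000925 and 0.00109). For CT1258 the DMSO samples were at 27.1, 33.9 and 30.3 CPM, the 12 h samples at 89.3, 93.2 and 77.7 CPM and the 24 h samples at 69.3, 57.8 and 57.4 CPM. Here CDC25A rose 2.85-fold (1.51 ± 0.12, adjusted p = 9.69e-08) and 2.02-fold (1.02 ± 0.12, adjusted p = 5.88e-06). Its 4 calls in PC-3 and CT1258 held in all fits that left out 1 sample, and its promoter window is the one with the E2F match printed above.

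SKP2, at chr5:36152091-36196951 on the plus strand, encodes the substrate-binding subunit of the ubiquitin ligase that targets CDKN1B. In PC-3 the controls were at 25.0 and 20.2 CPM, the 12 h samples at 75.3, 65.3 and 72.2 CPM and the 24 h samples at 74.8, 65.0 and 51.8 CPM. SKP2 rose 3.14-fold (1.65 ± 0.16, adjusted p = 1.89e-06) and 2.83-fold (1.5 ± 0.16, adjusted p = 7.90e-06), the largest fold change of any member at 24 h in this line. The LNCaP controls were at 45.8, 43.7 and 34.1 CPM, the 12 h samples at 98.9, 94.7 and 88.6 CPM and the 24 h samples at 78.2, 90.5 and 83.8 CPM. The groups were apart, and SKP2 had the lowest adjusted p of the members in LNCaP at both times, 0.00726 for 1.19 ± 0.16 and 0.0198 for 1.03 ± 0.16. Without the library that stood apart, these were 0.000513 and 0.000796, for the same log2 values. In CT1258 cells the controls were at 27.3, 22.9 and 22.3 CPM, the 12 h samples at 68.7, 62.4 and 61.7 CPM and the 24 h samples at 27.0, 31.9 and 33.4 CPM. The 12 h samples were far above the controls and the 24 h samples overlapped them, with a 2.66-fold rise at 12 h (1.41 ± 0.11, adjusted p = 1.40e-07) and a 24 h difference of 0.35 ± 0.12 that did not pass 0.001 (adjusted p = 0.0185). From 12 h to 24 h SKP2 fell 2.09-fold (-1.06 ± 0.12, adjusted p = 8.93e-05), a call lost without replicate 1 of the 12 h group or replicate 2 of the 24 h group (-1.13 to -0.98 over all fits, adjusted p up to 0.00116).

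**Figure D3:**
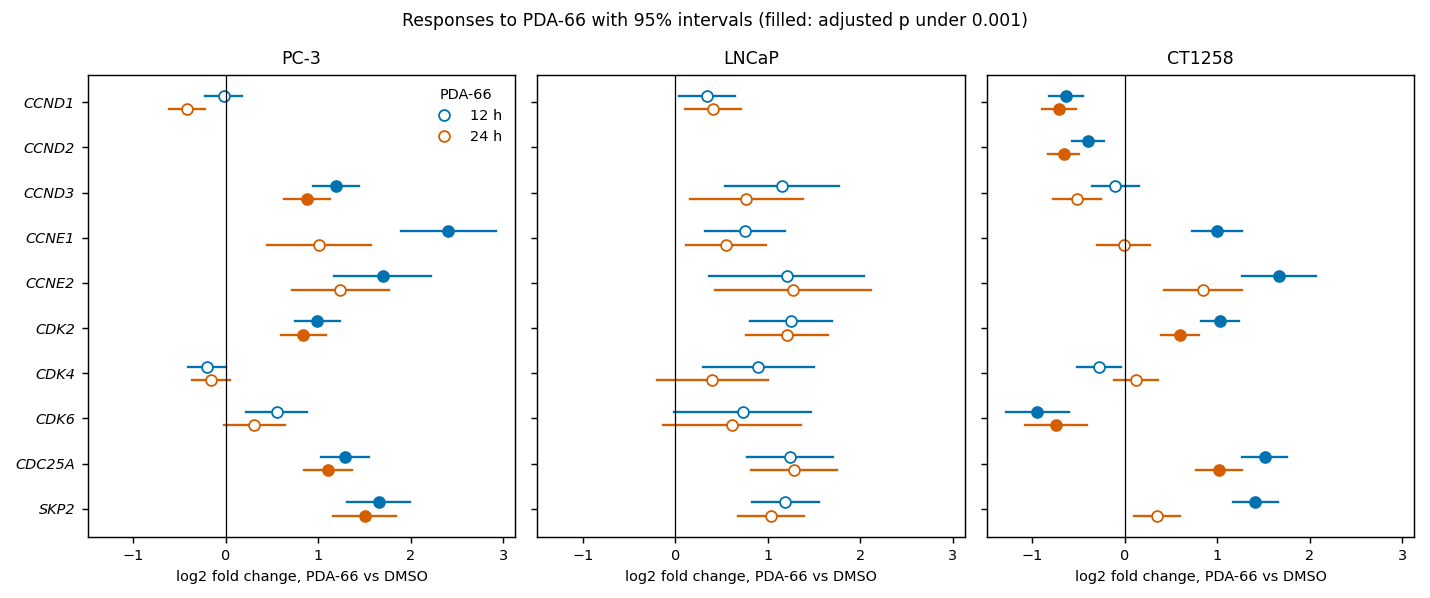
Log2 fold change of each member with PDA-66 against DMSO after 12 h and 24 h in each cell line, with 95% intervals and filled points where the adjusted p was under 0.001. CCNE1 at 12 h in PC-3 has the largest value, 2.41, and the 3 members below 0 with filled points are CCND1, CCND2 and CDK6 in CT1258.

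The 24 h and 12 h groups share no samples and were compared directly. In LNCaP no member passed 0.001 or 0.05 in edgeR's quasi-likelihood test, 0 members had an unadjusted p under 0.05, and 0% of all genes passed. Of all 13156 genes, 837 had an unadjusted p under 0.05. Without replicate 2 of the 12 h group 0 members passed 0.05. In CT1258, 8 of 10 members passed the second threshold of 0.05, as did 19.3% of all genes. These were CCND2, CCND3, CCNE1, CCNE2, CDK2, CDC25A and SKP2, lower at 24 h, and CDK4, higher at 24 h. The log2 differences of CCNE2 (-0.82, adjusted p = 0.00929), CDC25A (-0.49, adjusted p = 0.00887) and CDK2 (-0.43, adjusted p = 0.00834) missed 0.001, and CCND1 (-0.07) and CDK6 (0.20) missed both. The count at 0.001 of 2 in CT1258 was 0 without replicate 1 of the 12 h group or replicate 2 of the 24 h group, 1 without any other PDA-66 sample and 6 without DMSO replicate 2. In PC-3, CCND1 also passed 0.05 (-0.40, adjusted p = 0.00880), so that 2 of 9 members and 10.1% of all genes did, and the count of 1 at 0.001 was 0 without any 1 of the PDA-66 samples and 2 without either control.

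Whether the lines differed in their response was tested as an interaction at an adjusted p under 0.05. Between PC-3 and LNCaP 2 of 9 members differed at 12 h, where 13.7% of all genes did, and 1 of 9 at 24 h, where 5.99% did. The 12 h response of CCNE1 was larger in PC-3 by 1.71 ± 0.33 on the log2 scale (adjusted p = 0.00293), that of CDK4 was smaller in PC-3, and the 24 h response of CCND1 was lower in PC-3, with a difference of -0.79 ± 0.16 (adjusted p = 0.00735). Without the LNCaP library that stood apart, CDK4 also differed at 24 h (-0.52, adjusted p = 0.00955), but that library was picked in part by its CDK4 value. CT1258 differed from PC-3 in 4 of 9 members at 12 h, where 30.1% of all genes did and 15.0% were lower in CT1258, and in 4 of 9 at 24 h, where 21.2% did and 10.8% were lower. From LNCaP it differed in 4 of 9 at 12 h, where 40.2% of all genes did and 20.6% were lower, and in 5 of 9 at 24 h, where 21.1% did and 9.98% were lower. In each called case the canine response was the lower one, and CCND3 and CDK6 were among the members in all 4 comparisons. The log2 differences of CCND3 were between -1.38 and -1.20 and those of CDK6 between -1.64 and -1.05. The count of 5 at 24 h was 3 without LNCaP DMSO replicate 3, CT1258 DMSO replicate 1 or replicate 1 of the CT1258 24 h group.

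No difference between lines was called for CDC25A or CCNE2 at either time. For CDC25A, the 12 h intervals of the difference ran from -0.45 to 0.64 between PC-3 and LNCaP, from -0.24 to 0.72 between CT1258 and PC-3 and from -0.14 to 0.77 between CT1258 and LNCaP. For CDK2 at 12 h they ran from -0.73 to 0.30, from -0.38 to 0.49 and from -0.59 to 0.23. Differences of a size within these intervals remained possible, and for CCNE2 the interval was wider, from -1.03 to 0.99 between CT1258 and PC-3 at 12 h.

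**Figure D4:**
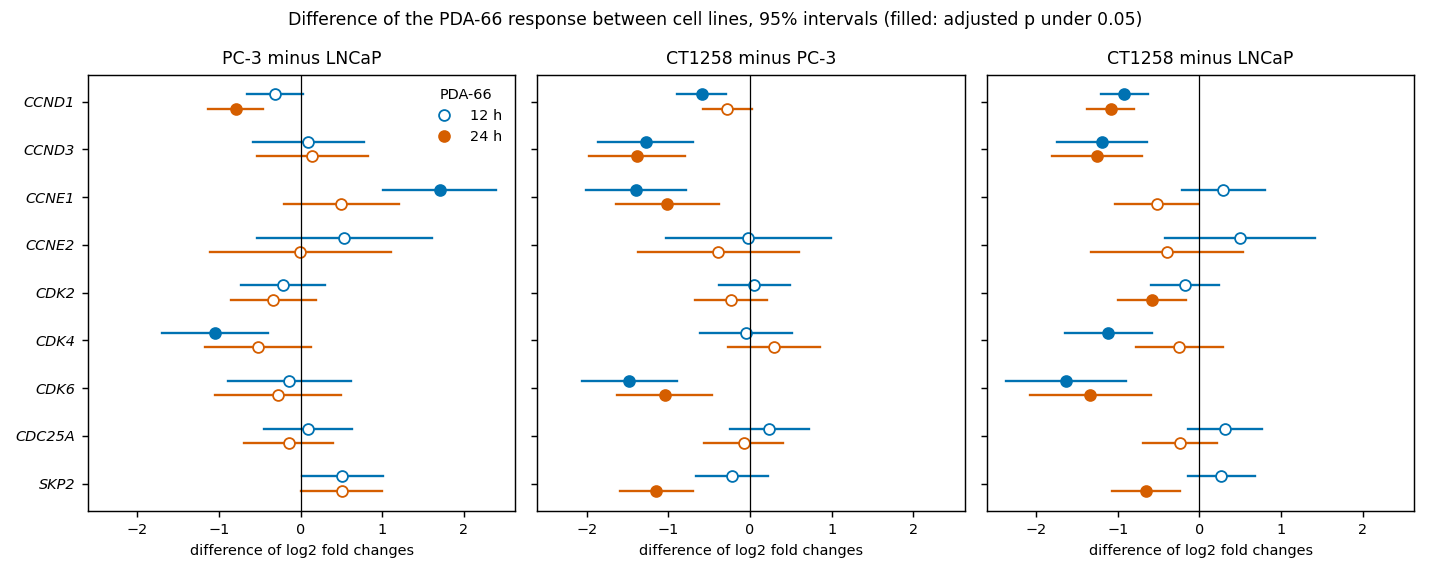
Difference of the log2 fold changes between cell lines for 9 members at 12 h and 24 h, with 95% intervals and filled points where the adjusted p of the interaction was under 0.05. CCND3 and CDK6 in CT1258 lie below 0 against both human lines, and CDC25A is close to 0 throughout.

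The balance between D and E cyclins and between their kinases was followed as the log2 ratio of counts of 2 members within a sample, which needs no normalization between samples. The mean ratio of CCNE1 to CCND1 was higher with PDA-66 in every line, by 2.47 and 1.46 in PC-3 at 12 h and 24 h, by 0.43 and 0.15 in LNCaP and by 1.65 and 0.72 in CT1258. In LNCaP the 24 h samples overlapped the controls (-4.26 to -4.05 against -4.53 to -4.13), and the control SD was 0.199. The ratio of CDK2 to CDK4 was higher by 1.20 and 0.99 in PC-3, by 0.47 and 0.83 in LNCaP, where the 12 h samples overlapped the controls and the 12 h difference was 0.91 without the library that stood apart, and by 1.29 and 0.46 in CT1258. That of CDK6 to CDK4 was higher by 0.78 and 0.49 in PC-3 and lower in CT1258, with differences of -0.65 and -0.85, while LNCaP had -0.13 (0.50 without the library that stood apart) and 0.20. The PC-3 24 h, CT1258 12 h and both LNCaP groups overlapped their controls, with control SDs of 0.56 in PC-3 and 0.67 in CT1258. The ratio of CCNE2 to CCNE1 differed by -0.72 and 0.19 in PC-3, by 0.39 (0.96 without that library) and 0.79 in LNCaP and by 0.64 and 0.81 in CT1258. Its PC-3 24 h and LNCaP 12 h samples overlapped their controls. With exact two-sided permutation tests the smallest possible p is 0.1 for 3 samples against 3 and 0.2 for 2 against 3, so no ratio could pass, and the lowest adjusted p of 24 tests was 0.24.

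The CDK inhibitors, which oppose the members, went down in PC-3 more often than up. Of 7 tested, 4 fell and 1 rose at both times. Among all 13777 genes tested, 2012 fell and 1785 rose at 12 h, and 1442 fell and 1223 rose at 24 h. CDKN2B, an inhibitor of CDK4 and CDK6, had the largest log2 fold changes with -2.62 and -2.09, CDKN2A followed with -1.32 and -1.42 and CDKN1B, the target of SKP2, with -0.73 and -0.69, while the p53 target CDKN1A rose by 1.13 and 0.77. The list's median was -0.53 at 12 h and -0.49 at 24 h, and without replicate 2 of the 24 h group 3 rather than 5 passed at 24 h. In CT1258 only CDKN2C was tested, and it rose at 12 h (0.85) and had 0.61 at 24 h (adjusted p = 0.0014), a value that passed without DMSO replicate 2.

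Of the RB and E2F genes, which act directly after these kinases, 4 of 10 rose in PC-3 at each time. RBL1 (0.92 and 1.15), E2F1 (0.76 and 0.52), E2F3 (0.74 and 0.59) and the E2F partner TFDP1 (0.63 and 0.70) were these 4, and 1 more, RBL2, named after its value was seen, fell by 0.62 at 12 h. Over all genes tested in PC-3, 13.0% rose at 12 h and 8.88% at 24 h. Without replicate 3 of the 12 h group 3 passed at 12 h, and without any 1 of the 12 h samples or replicate 1 or 2 of the 24 h group 2 passed at 24 h. In CT1258 3 of 9 rose and 2 fell at 12 h, led by TFDP2 with -0.84 and E2F5 with 0.82, and only E2F5 passed at 24 h, with 0.85. These counts were 3 without replicate 1 or 2 of the 12 h group and, at 24 h, 3 without DMSO replicate 2. Over all genes tested in CT1258, 22.2% rose and 22.1% fell at 12 h, and 16.6% rose and 17.2% fell at 24 h. Of the 3 genes of the CDK-activating kinase, 0 passed 0.001 in edgeR's quasi-likelihood test in any line, with 0 to 2 at an unadjusted p under 0.05 per comparison and 0 to 2 by the other tests. One passed without PC-3 DMSO replicate 3 at 12 h or without CT1258 DMSO replicate 2 at either time.

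Among the partners of SKP2 and other ubiquitin ligase genes, 0 of 7 passed in PC-3 at 12 h in edgeR's quasi-likelihood test and in the other 3 tests, with 4 at an unadjusted p under 0.05, and 1 passed at 24 h, BTRC with 0.56, which was lost without any 1 sample other than DMSO replicate 2. At 12 h in PC-3, 8458 of all 13777 genes had an unadjusted p under 0.05. At 0.001, 27.6% of all genes passed at 12 h and 19.3% at 24 h. In CT1258 2 of 5 rose and 1 fell at both times. Among all genes tested in CT1258, 44.3% passed at 12 h and 33.8% at 24 h. SKP1, the adaptor that SKP2 binds, rose by 1.08 and 1.04, BTRC by 0.93 and 0.51, and AMBRA1, which is known for directing D cyclins to degradation, fell by 0.85 and 0.50. At 24 h 1 passed without replicate 2 of the 12 h group, replicate 2 or 3 of the 24 h group or DMSO replicate 1.

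Of the S phase entry genes, 5 of 9 rose in PC-3 and none fell at both times, among them RRM2, a subunit of ribonucleotide reductase (1.58 and 1.56), ORC1 (1.23 and 1.12) and MCM5 (1.08 and 0.77). Over all genes tested in PC-3, 13.0% rose at 12 h and 8.88% at 24 h. In CT1258 6 of 8 rose at 12 h, FBXO5 (1.94), PCNA (0.93) and ORC1 (0.78) among them, and 4 rose and 1, MCM5, fell (-0.66) at 24 h. The 24 h count of 5 was 2 without replicate 2 or 3 of the 24 h group and 3 without replicate 1 of that group or DMSO replicate 1 or 3. Over all genes tested in CT1258, 22.2% rose at 12 h, and 16.6% rose and 17.2% fell at 24 h. The list's median log2 fold changes were 0.90 and 0.77 in PC-3 and 0.71 and 0.37 in CT1258.

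Of 9 later cyclins and other genes of S, G2 and M, 6 rose in CT1258 at both times, and 1 fell at 12 h. Over all genes tested in CT1258, 22.2% rose and 22.1% fell at 12 h, and 16.6% rose and 17.2% fell at 24 h. CCNB1, the mitotic cyclin B1, rose by 3.01 and 3.71 on the log2 scale, CCNA2 by 1.57 and 2.08 and CDK1 by 1.81 and 1.63. In PC-3 3 of 9 rose at both times, CCNF (1.37 and 0.66), PKMYT1 (1.28 and 1.06) and CCNA2 (0.94 and 1.01), with 2 called at 24 h in each fit that left out 1 sample. Among all genes tested in PC-3, 13.0% rose at 12 h and 8.88% at 24 h. The mitogen response genes went the other way in PC-3, where 6 of 9 fell at 12 h and 3 at 24 h and none rose. Of all 13777 genes tested, 2012 fell at 12 h and 1442 at 24 h. FOS had -3.23 and -2.42, MYC -1.76 and -1.0 and DUSP6 -1.43 and -0.80, and 5 passed at 24 h without DMSO replicate 3. In CT1258 SPRY4 fell at both times (-1.35 and -1.91), JUN rose at 12 h (0.58), and EGR1 (-1.03) and DUSP6 (-0.49) fell at 24 h. The 12 h count of 2 was 4 without DMSO replicate 2.

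In LNCaP, none of the genes of these lists passed 0.001 in edgeR's quasi-likelihood test at either time, and their values are given at 0.05. Of the 9 S phase entry genes, 8 were higher at 12 h and 6 at 24 h, with list medians of 1.36 and 1.08, and of the 9 genes of S, G2 and M 6 and 2 were higher, with medians of 1.44 and 1.10. Over all 13156 genes, 594 (4.52%) were higher at 12 h and 178 (1.35%) at 24 h. E2F1 (1.89 and 1.40) and E2F2 (1.58 and 1.5) were the 2 of 10 RB and E2F genes that passed, both higher. CDKN2C (2.42 and 1.89) was the CDK inhibitor that passed at both times, and CKS1B, the cofactor of SKP2, with 0.69 and 0.82 the ubiquitin ligase partner. Of the 7 mitogen response genes, 4 at 12 h and 2 at 24 h were lower, as were 608 and 206 of all 13156 genes. At an unadjusted p under 0.05 there were 8 and 8 S phase entry genes, 8 and 8 genes of S, G2 and M, 3 and 4 RB and E2F genes, 3 and 4 CDK inhibitors, 1 and 3 ubiquitin ligase partners and 4 and 5 mitogen response genes at 12 h and 24 h. Of all 13156 genes tested, 3950 and 2599 had such an unadjusted p. By the DESeq2 Wald test at 0.001, the same lists in the same order had 7 and 5, 6 and 1, 2 and 2, 2 and 1, 0 and 1, and 1 and 2 genes. By the likelihood ratio test they had 7 and 4, 5 and 1, 2 and 2, 2 and 1, 0 and 0, and 2 and 2, and by limma voom 8 and 8, 8 and 8, 2 and 3, 2 and 2, 2 and 2, and 2 and 2. Shares of all genes called by the Wald, likelihood ratio and voom tests are not given here. Without replicate 2 of the 12 h group, all 9 S phase entry genes passed 0.05 at both times, as did 8 genes of S, G2 and M, 3 CDK inhibitors and 3 ubiquitin ligase partners. In the same fit 5 RB and E2F genes passed at 12 h and 6 at 24 h, and 4 and 5 mitogen response genes. Of all genes in that fit, 29.1% passed 0.05 at 12 h and 27.9% at 24 h.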

How the data were processed

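RNA of 26 of the 27 labelled samples was analysed, and 1 PC-3 control, which the study left out as an outlier, is not analysed here. The authors deposited whole read counts per gene, not normalized. They had mapped poly(A) single reads to hg19 with STAR 2.3.1s (human lines) or to CanFam3.1 with BWA (CT1258) and counted the canine reads with GAGE. How the counting treated strands and multi-mapping reads is not given in the sources used here, and the authors' edgeR version was 3.14.0. Trailing separators in 1 PC-3 column were removed, and for 2 PC-3 12 h samples, P12-1 and P12-2, the replicate number is unclear.

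After filterByExpr and TMM normalization, the counts were tested with the quasi-likelihood F test of edgeR 4.0.16 (limma 3.58.1, DESeq2 1.42.0, R 4.3.3, Python 3.11.15, scipy 1.17.1, matplotlib 3.10.9), in 1 fit per cell line with 3 groups. P-values were adjusted by Benjamini-Hochberg over all genes tested. The threshold was 0.001 within lines and for the controls and 0.05 for differences of responses. The PC-3 and LNCaP fit held 15018 genes and the 3-line fit 11736 shared symbols, and canine levels were not compared with human ones. CPM are TMM-scaled, CPM per kb use the length of the main human transcript, and ratios used a prior count of 0.5. The test was checked on simulated counts with known changes. All members were named in every comparison, and of each list up to 4 genes with the largest absolute log2 fold change past the threshold. Genes named at 0.05 in LNCaP were chosen after their values were seen, and INTS8 and TSPAN31 because they share exon bases with members. The members, the lists and the tests were chosen with earlier results of these data known. Alternatives were scaling by library size only or by DESeq2 size factors, no filter, limma voom with sample quality weights, the Wald test of DESeq2, edgeR's likelihood ratio test, another threshold, only the 2 groups compared, a replicate block, thinned CT1258 controls and leaving out each sample, and 1 more was chosen after seeing the data. One list of line markers is not reported here.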

Additional observations from a re-analysis of the deposited data

Results flagged for a closer look

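These results are listed because the response to PDA-66 differed between cell lines in a test of the difference itself (edgeR interaction, adjusted p under 0.05). Each value is the difference of the log2 fold changes of the first and the second line named. PC-3 minus LNCaP gave 1.71 for CCNE1 (adjusted p = 0.00293) and -1.05 for CDK4 (adjusted p = 0.0326) at 12 h, and -0.79 for CCND1 (adjusted p = 0.00735) at 24 h. CT1258 minus PC-3 gave at 12 h -0.59 for CCND1 (adjusted p = 0.00349), -1.28 for CCND3 (adjusted p = 0.00145), -1.40 for CCNE1 (adjusted p = 0.00093) and -1.48 for CDK6 (adjusted p = 0.000339). At 24 h it gave -1.38 for CCND3 (adjusted p = 0.00124), -1.01 for CCNE1 (adjusted p = 0.0202), -1.05 for CDK6 (adjusted p = 0.00932) and -1.15 for SKP2 (adjusted p = 0.0006). CT1258 minus LNCaP gave at 12 h -0.92 for CCND1 (adjusted p = 2.68e-05), -1.20 for CCND3 (adjusted p = 0.00113), -1.12 for CDK4 (adjusted p = 0.00155) and -1.64 for CDK6 (adjusted p = 0.00092). At 24 h it gave -1.09 for CCND1 (adjusted p = 1.19e-05), -1.25 for CCND3 (adjusted p = 0.00198), -0.58 for CDK2 (adjusted p = 0.0438), -1.34 for CDK6 (adjusted p = 0.00992) and -0.65 for SKP2 (adjusted p = 0.0234).

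Leaving out 1 sample ended 5 of these calls. The CDK4 difference between PC-3 and LNCaP was lost without either PC-3 control, any PC-3 12 h sample or LNCaP DMSO replicate 2 or 3 (adjusted p up to 0.132). Without replicate 2 of the LNCaP 12 h group CDK4 gave -0.62 between PC-3 and LNCaP (adjusted p = 0.00345) and -0.69 between CT1258 and LNCaP (adjusted p = 0.000664). That replicate was picked in part by its CDK4 value. The CCNE1 difference between CT1258 and PC-3 at 24 h was lost without PC-3 DMSO replicate 3 or CT1258 DMSO replicate 2 (adjusted p up to 0.169), and that of CDK6 without PC-3 DMSO replicate 3 (adjusted p = 0.0754). Between CT1258 and LNCaP at 24 h, the CDK2 difference was lost without LNCaP DMSO replicate 2 or 3 or any CT1258 DMSO or 24 h sample (adjusted p up to 0.12), and the SKP2 difference without LNCaP DMSO replicate 3, CT1258 DMSO replicate 1 or replicate 1 of the CT1258 24 h group (adjusted p up to 0.0704). Species, gene models, medium and depth differ together with the cell line and cannot be told apart from it.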

How the results depend on the processing

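Counts of members called changed most with the test and the threshold, and the causes were not tested. Shares of all genes called by the likelihood ratio, Wald and voom tests are not given here. The likelihood ratio test gave 7 in PC-3 at 24 h, 2 in PC-3 between 24 h and 12 h and 3 in LNCaP at either time. The DESeq2 Wald test gave 2 in PC-3 between 24 h and 12 h and 3 in LNCaP at either time. Limma voom gave 4 in PC-3 between the times, 7 and 6 in LNCaP at 12 h and 24 h, 9 in CT1258 at 24 h, 8 in CT1258 between the times and 2 for PC-3 minus LNCaP at 24 h. At an adjusted p under 0.05 there were 7 in PC-3 at 24 h, 2 between the times, 5 and 3 in LNCaP and 8 in CT1258 at 24 h and between the times, and 8 in LNCaP at either time without replicate 2 of its 12 h group, the alternative chosen after seeing the data. Fits of only the 2 groups compared gave 2 in PC-3 and 6 in CT1258 between the times. At 0.001, differences of responses numbered 0 at both times for PC-3 minus LNCaP, 2 and 1 for CT1258 minus PC-3 and 2 and 1 for CT1258 minus LNCaP at 12 h and 24 h.

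Leaving out 1 sample gave 6 to 7 members in PC-3 at 12 h, 4 to 6 at 24 h and 0 to 2 between the times. It gave 0 to 3, 0 to 1 and 0 to 0 in LNCaP and 7 to 8, 3 to 8 and 0 to 6 in CT1258. It gave 1 to 2 and 1 to 2 for PC-3 minus LNCaP, 3 to 4 for the controls, 4 to 4 and 2 to 4 (2 without PC-3 DMSO replicate 3) for CT1258 minus PC-3 and 4 to 4 and 3 to 7 for CT1258 minus LNCaP.

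Signs turned only for values that were not called, and not all of these were near 0. In the quasi-likelihood fit, CCNE2 was 0.54 for PC-3 minus LNCaP and CDC25A 0.31 for CT1258 minus LNCaP, both at 12 h. With library size only, CCND1 was 0.0274 in PC-3 at 12 h, CCNE1 0.00404 in CT1258 at 24 h, CCNE2 0.0661 for PC-3 minus LNCaP at 24 h and 0.00667 for CT1258 minus PC-3 at 12 h. With no filter, CCND1 was 0.0104 in PC-3 at 12 h. With DESeq2 size factors, CCNE2 was 0.0436 and CDK4 0.00559 for CT1258 minus PC-3 at 12 h. With thinned controls, CCNE1 was 0.0274 in CT1258 at 24 h. With limma voom, CDK4 was -0.0139 in PC-3 between the times, CCNE2 -0.22 and CDC25A -0.0844 in LNCaP between the times, CCNE1 0.13 in CT1258 at 24 h, CCNE2 -0.0281 and CDC25A -0.21 for PC-3 minus LNCaP at 12 h and CCND3 -0.0495 at 24 h. Voom also gave 0.0774 for CCND3 between the controls, 0.14 for CCNE2 and 0.0666 for CDK4 for CT1258 minus PC-3 at 12 h and 0.0183 for CDC25A at 24 h. Without replicate 2 of the LNCaP 12 h group, CCNE2 was -0.26 and CDC25A -0.0458 between the times. Leave-one-out ranges that crossed 0 were -0.0431 to 0.0161 (CCND1, PC-3 12 h), -0.26 to 0.29 (CCNE2), -0.33 to 0.0429 (CDK6) and -0.0458 to 0.12 (CDC25A, all LNCaP between the times) and -0.15 to 0.13 (CCNE1, CT1258 24 h). For PC-3 minus LNCaP they were -0.23 to 0.35 (CCND3), -0.41 to 0.20 (CDK6) and -0.13 to 0.26 (CDC25A) at 12 h and -0.18 to 0.33 (CCND3), -0.30 to 0.36 (CCNE2), -0.56 to 0.0602 (CDK6) and -0.37 to 0.0204 (CDC25A) at 24 h, and for the controls -0.26 to 0.25 (CCND3) and -0.37 to 0.0256 (CDC25A). For CT1258 minus PC-3 they were -0.35 to 0.21 (CCNE2), -0.035 to 0.0959 (CDK2) and -0.21 to 0.13 (CDK4) at 12 h and -0.19 to 0.0148 (CDC25A) at 24 h, and for CT1258 minus LNCaP at 12 h -0.45 to 0.0111 (CDK2) and -0.0271 to 0.48 (CDC25A).

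Same-numbered samples did not deviate together (correlations -0.114 to 0.0831 in PC-3, -0.42 to 0.185 in LNCaP and -0.189 to 0.153 in CT1258), so the numbers were not taken as pairs. With the replicate block, 4 members passed in PC-3 at 24 h, 0 in LNCaP in each comparison and 7, 5 and 2 in CT1258, and CCNE1 in CT1258 at 24 h was 0.000338. The block ended the calls of CDK2 in PC-3 at 24 h (0.77, adjusted p = 0.00162) and of CCND2 in CT1258 at 12 h (-0.40, adjusted p = 0.00163). Voom ended those of SKP2 between the controls (-0.76, adjusted p = 0.00616) and of CCNE1 for CT1258 minus PC-3 at 24 h (-0.71, adjusted p = 0.258), and library size only that of CDK2 for CT1258 minus LNCaP at 24 h (-0.52, adjusted p = 0.0902). Of 50 calls, 38 held in every fit that left out 1 sample. CDK6 had 13 to 36 counts per LNCaP sample, which limits what its test can show.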

Other observations

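For each member, the genes whose log2 CPM followed it most closely were sought among 8265 genes tested in all 3 lines, by the mean Pearson correlation over the 3 lines (8, 9 and 9 samples). The points share the split into DMSO and PDA-66 samples, so these values are descriptions without a test. CDK2 was followed most closely by MCM4 at 0.985, HELLS at 0.983 and CLSPN at 0.980. CDC25A was nearest to MCM4 (0.979), PSMD1 (0.978) and ORC1 (0.974), and CCND3 to MCM5 (0.952). SKP2 was nearest to CDK2 itself (0.963), then MCM6 (0.958) and MCM4 (0.950), and CCNE2 to NAA15 (0.963), FAM111B (0.960) and MSH6 (0.956). The pair of CDK2 and CDC25A had 0.970 and that of CDK2 and CCNE2 0.940. The closest genes of CCND1 were SERPINE2 (0.890) and PFKFB3 (0.884), those of CCNE1 NOL9 (0.936) and CORO1C (0.912), those of CDK4 PARK7 (0.906) and ZSWIM1 (0.895) and those of CDK6 MYOF (0.847) and DVL3 (0.829).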
